A study of Mus musculus with 2 samples.

Results

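Conventional type 1 dendritic cells (cDC1) made up 91 of the 15958 cell barcodes in 2 libraries of pancreatic islet cells, 44 in one and 47 in the other. They were chosen by a gate on counts of unique molecular identifiers (UMIs, 1 for each captured RNA molecule): at least 1 UMI of Xcr1 and Clec9a together, at least 3 of H2-Ab1, and few or none of the genes that mark macrophages (C1q), T cells (Cd3), B cells (Cd79a and Ms4a1), plasmacytoid dendritic cells (Siglech), mature dendritic cells (Fscn1) and endocrine cells (10% or more of UMIs from 5 hormone genes). Xcr1, Clec9a and the excluded genes therefore describe the gate and are not results.

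Both libraries came from wild-type NOD/ShiLtJ mice, a strain that develops autoimmune diabetes without treatment, at 15 weeks of age. One group ate a diet labelled 16% HC with 4% gluten (called gluten here) and the other a diet labelled 20% HC (HC alone), and the labels do not say what HC is. Islets were freed by collagenase P given through the bile duct, separated on a Histopaque gradient, picked by hand and dispersed with trypsin-EDTA, after which a pool of 3 mice gave the single library of each diet. The cDC1 were thus whatever such cells remained attached to or inside isolated islets, and the labels name no sort. With 1 pooled library per diet there was no replicate, so no difference between diets was tested. Intervals are 95% intervals that cover counting error only, not the spread between mice, pools or preparations.

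cDC1 take up dead cells and present their antigens to CD8 T cells on MHC class I, a route called cross-presentation. Their development depends on the transcription factors Irf8 and Batf3, and they carry the chemokine receptor Xcr1 and the receptor Clec9a, which binds exposed actin of dead cells. In NOD mice, Batf3-dependent dendritic cells are known to be needed for islet autoimmunity to begin.

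The islet libraries held 88268070 UMIs with gluten and 116900677 with HC alone, and the cDC1 458694 and 636501. A cDC1 with gluten held 1126 UMIs at the lowest, 10783.5 at the median and 18743 at the highest. With HC alone the same values were 2013, 14757 and 28343, so the HC cells were deeper, and shares of cells in which a gene was found are given after thinning each cell to 1000 UMIs where a comparison rests on them. For comparison, T cells (1102 and 2044 cells) had medians of 2377.5 and 2852.5 UMIs, and cDC2, the conventional dendritic cells of the other type (54 and 45 cells), of 6774 and 9015. The cDC2 gate was the same except that it required no Xcr1 or Clec9a UMI and at least 1 of the lectins Cd209a, Clec10a and Mgl2. Levels are given as CPM, UMIs of the gene per 1000000 UMIs of all cells of the class. Across the libraries 15 barcodes were shared, none of them in a cDC1.

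The number of cDC1 did not separate the diets. They were 0.610% (exact interval 0.444 to 0.818) of the 7213 good barcodes with gluten and 0.640% (0.470 to 0.850) of the 7347 with HC alone, a difference of -0.0297 percentage points (interval -0.291 to 0.232). Among barcodes with under 10% hormone UMIs, the shares were 1.18% of 3735 and 1.06% of 4441, a difference of 0.12 points (-0.338 to 0.597). Among cells in the 3 dendritic gates (cDC1, cDC2 and mature), cDC1 were 37.0% of 119 and 41.2% of 114, a difference of -4.25 points (-16.5 to 8.17). In each case the interval spans 0, which does not show that the shares were equal.

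The gate was checked at its edges. Before the exclusions, 123 and 161 barcodes held an Xcr1 or Clec9a UMI. The macrophage limit removed the most, 30 and 67, and the T-cell limit 24 and 26. Cells let in by a single UMI of Xcr1 or Clec9a (12 and 7) carried Irf8 at 473 and 203 CPM, against 1480 and 1691 CPM in the 32 and 40 cells with 2 or more. Cells that met the other conditions but held neither, just outside (347 and 285), carried Irf8 at 139 and 157 CPM. The summed level of the single-UMI cells therefore lay between the others, but these cells were mixed. Per cell, Irf8 ran from 0 to 20 UMIs with gluten and from 0 to 3 with HC alone. The list of cDC2 genes ran from 1 to 246 UMIs and from 9 to 309. One gluten cell held 20 Irf8 and 8 cDC2-list UMIs, and another 0 and 131. A gate that required 2 or more UMIs is used below as a second setting. The mature cells kept out by Fscn1 (9 and 10) carried 1066 and 1399 CPM of Irf8, so the gate leaves out mature cells with Irf8 nearly as high.

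The gate let in cells with either receptor, and most carried both or Xcr1 alone. Xcr1 (chr9:123852315-123862029 on the GRCm38 build, positions from GENCODE vM21) ranged per cell from 0 to 13 UMIs with gluten (median 3) and from 0 to 21 with HC alone (median 8). It was found in 37 and 41 cells, while Clec9a (chr6:129408862-129424763) was found in 30 and 37. Both were found together in 23 of 44 and 31 of 47 cells, and Xcr1 alone in 14 and 10. Levels of Xcr1 were 342 CPM with gluten and 556 CPM with HC alone, and those of Clec9a 116 and 138 CPM.

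The other 3 markers were not used by the gate. Irf8, the transcription factor that fixes this lineage (chr8:120736358-120756694), stood at 1271 CPM with gluten and 1552 with HC alone, against 139.9 and 184 CPM in cDC2. It was found in 88.6% and 95.7% of cDC1 (61.6% and 69.9% after thinning) and in 11.0% and 10.1% of T cells. Naaa, a lysosomal lipid amidase (chr5:92257659-92278170), stood at 671 and 943 CPM against 89.0 and 100.1 in cDC2. Wdfy4, needed for cross-presentation of cell-bound antigen (chr14:32959547-33185508), stood at 432 and 407 CPM against 127 and 81.5. All 3 were thus several times higher in the summed cDC1 than in cDC2 of the same library, and the label fits the class as a sum. A group of members in each library held little Irf8 and many UMIs of the cDC2 list, and so resembled cDC2 more. With gluten, their cDC2-list UMIs were 246, 228, 131, 126, 102, 92, 82, 79 and 55. Their Irf8 UMIs, in that order, were 1, 1, 0, 0, 1, 0, 0, 1 and 0. With HC alone, they held 369, 309, 292, 262, 125, 66 and 52 of that list. Their Irf8 UMIs were 5, 3, 3, 0, 1, 2 and 1. Other cells with 111 and 55 such UMIs (gluten) and 52 (HC alone) held 19, 26 and 12 of Irf8. Such cells were kept in the main values.

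**Figure D1:**
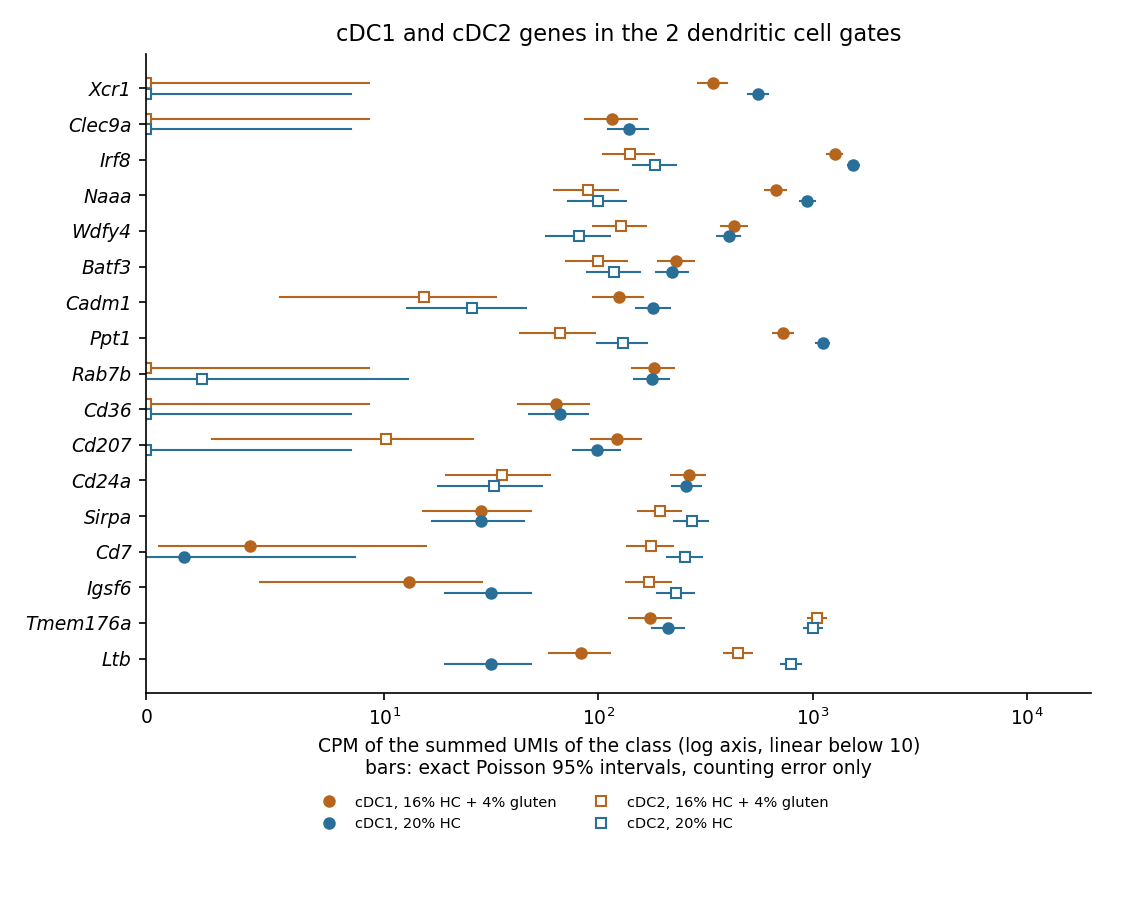
CPM of cDC1 and cDC2 genes (symmetric log axis, linear below 10) in cDC1 (filled circles) and cDC2 (open squares) of each library, with exact Poisson 95% intervals of the summed counts. Irf8, Naaa and Wdfy4 lie above cDC2 in both libraries, and Sirpa, Cd7, Igsf6, Tmem176a and Ltb below.

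Other genes of the lineage followed the same pattern. Of 25 such genes with at least 10 UMIs over cDC1 and cDC2 in each library, 15 were at least 2-fold higher in cDC1 in both libraries and 1 was lower, with median log2 ratios of 1.54 with gluten and 1.62 with HC alone. Over all 6292 genes so measured the median log2 ratio was 0.00, and 3.75% of genes were 2-fold higher in both libraries and 6.04% lower. Since the gate used the same cells, these are descriptions of the members. Batf3, the partner of Irf8, was at 231 and 222 CPM (cDC2 99.2 and 119). Cadm1, an adhesion molecule used to sort cDC1, was at 124 and 181 CPM (cDC2 15.3 and 25.6). Ppt1, a lysosomal thioesterase, was at 728 and 1114 CPM (cDC2 66.1 and 130.3). Each of these was higher in cDC1 of both libraries. Outside the lineage list, Mpeg1, a pore-forming protein of phagosomes, was at 355 and 545 CPM (cDC2 83.9 and 100.1), and Txn1, thioredoxin, at 1711 and 2302 CPM (cDC2 419.6 and 351). Mycl, a Myc relative that supports cDC1 growth, had log2 ratios of 2.87 and 2.50, and Ppt1 of 3.46 (2.88 to 4.10) and 3.10 (2.70 to 3.51).

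Several genes were at or near 0 in cDC2, and mature dendritic cells held some of them with gluten. Rab7b, a small GTPase of late endosomes, had 83 and 113 UMIs in cDC1, 0 and 1 in cDC2, and 13 and 0 in mature dendritic cells (72.1 and 0 CPM). Cd36, a scavenger receptor that takes up lipids and apoptotic cells, was at 63.2 and 66.0 CPM, with no UMI in cDC2 of either library and 5 and 0 in mature dendritic cells (27.7 and 0 CPM). For 0 UMIs in cDC2, 3 counts allow up to 7.63 and 6.98 CPM. Cd24a, a surface sialoglycoprotein, was at 264 and 258 CPM, against 35.6 and 32.6 in cDC2 and 122 and 63.1 in mature dendritic cells.

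Surface markers of cDC1 of lymphoid organs and of those of tissues were both present. Cd8a, carried by cDC1 resident in lymphoid organs, was found in 11 of 44 and 15 of 47 cDC1, with no UMI in 54 and 45 cDC2 (which allows up to 5.56% and 6.67% of cells with a UMI), and in 24.7% and 22.3% of T cells. Itgae, the CD103 integrin chain of tissue cDC1, was found in 17 and 15 (7.89% and 5.97% of T cells), and Cd207, the lectin langerin, in 14 and 16, with no UMI in T cells (which allows up to 0.272% and 0.147% of cells with a UMI). Thinned to 1000 UMIs, Cd8a was left in 3.63% and 5.63% of cDC1, Itgae in 8.33% and 4.30%, and Cd207 in 9.48% and 7.44%, while T cells kept Cd8a in 14.4% and 12.3% and Itgae in 3.47% and 2.32%. Cd8a and Itgae stood in the same cell in 3 and 7 cells, Cd8a alone in 8 and 8, Itgae alone in 14 and 8, and neither in 19 and 24. At these depths a cell with no UMI may still express the gene, so the 4 classes are counts of detection.

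Genes of the cDC2 lineage were mostly lower in cDC1 than in cDC2. Of 25 measured cDC2 genes, 21 were at least 2-fold lower in cDC1 of both libraries (medians -1.79 and -2.17). Sirpa, the inhibitory receptor that marks cDC2, was at 28.3 and 28.3 CPM against 193 and 272. Irf4, the factor of the cDC2 lineage, had 0 and 2 UMIs in all cDC1. Over the 1242 genes with at least 50 UMIs in the class where the level was higher, in each library, 61 (4.91%) were 2-fold higher in cDC1 of both libraries and 80 (6.44%) lower. Among the 10 furthest below cDC2, Cd7 had log2 ratios of -5.33 (-8.40 to -3.42) and -7.34 (-12.65 to -4.83), Igsf6 of -3.72 and -2.87, and Fabp5, a fatty acid carrier, of -3.03 and -3.60. Ltb, which encodes lymphotoxin beta, had ratios of -2.44 and -4.65, and Tmem176a, a membrane channel protein, of -2.59 and -2.24. One of the 10, Pyy, encodes an islet hormone and not a dendritic gene (log2 -3.02 and -5.06). Without cells at 2% or more hormone UMIs, the larger of its log2 ratios was 0.34.

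RNA of other cells was measured beside these results. The macrophage list, 2 genes of which are shared with the cDC2 list, summed to 1554 and 1411 CPM in cDC1 against 51760.3 and 62044 CPM in macrophages. T-cell genes summed to 85.0 and 104 CPM against 12462 and 11746 in T cells. B-cell genes summed to 196 and 225 CPM against 76658 and 57133. These 3 lists stood at a small share of their levels in their own cells, though the gate itself set limits on some of their genes. The cDC2 list was a larger share, at 3680 and 3235 CPM in cDC1 against 12618 and 15276 CPM in cDC2. Hormone RNA was in every class. Ins2 UMIs were found in all cDC1 and all T cells of both libraries, and hormones were a median of 0.510% of UMIs in cDC1 with gluten (highest 9.60%) and 0.339% with HC alone (highest 2.10%).

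Antigen presentation genes mostly stood within 2-fold of cDC2. The immunoproteasome subunits Psmb8 and Psmb9, which cut peptides for MHC class I, had log2 ratios over cDC2 of 0.66 and 0.80, and of 0.72 and 0.87. Pdia3, a chaperone of class I loading, had 0.89 and 1.12, while B2m, the class I light chain, had -0.49 and -0.36. The whole class I list had medians of 0.22 and 0.31. The class II list had medians of -0.42 and -0.23, with Ctss, the protease that frees class II from the invariant chain, at -1.22 and -1.40. H2-DMb2 and H2-Oa, which edit the class II peptide, were at -1.25 and -1.23, and at -1.12 and -1.75. Of 26 class I genes, 2 were 2-fold higher than in cDC2 of both libraries and 1 lower, and of 13 class II genes none was higher and 3 lower, beside 3.75% and 6.04% of all genes. Class II RNA was abundant, at 52351 and 51090.3 CPM for the whole list.

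A larger share of cDC1 than of the other myeloid cells carried cell cycle RNA. At least 10 UMIs of the S phase and G2/M genes were found in 14 of 44 cDC1 with gluten (31.8%, exact interval 18.6 to 47.6) and in 21 of 47 with HC alone (44.7%, 30.2 to 59.9). The shares were 5.56% and 6.7% in cDC2, 5.48% and 7.6% in macrophages, and 19.0% and 9.1% in mature dendritic cells, from 2 to 10 such cells in each. All 18 G2/M genes measured were at least 2-fold higher in cDC1 than in cDC2 of both libraries, with median log2 ratios of 2.53 and 2.68. S phase genes were higher by less, with medians of 1.33 and 1.17 and 7 of 17 past 2-fold.

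The cycle genes were concentrated in part of the cDC1. G2/M RNA per cell ran from 0 through a median of 1.23 to 116 UMIs per 10000 with gluten, and from 0 through 1.15 to 121 with HC alone, and 12 and 14 cells had none. Mki67 and Top2a, both of proliferating cells, were together in 9 and 12 cells. Ube2c, a ubiquitin-conjugating enzyme of mitosis, had log2 ratios over cDC2 of 5.12 (3.73 to 7.01) and 4.48 (3.34 to 5.95), and Birc5, survivin, of 2.60 and 3.15. Depth differed between classes, so the cells were also thinned to 1000 UMIs. Mean G2/M UMIs per cell were then 1.08 and 1.57 in cDC1, 0.180 and 0.215 in cDC2 and 0.429 and 0.432 in T cells. In mature dendritic cells the means were 0.271 and 0.240. At equal depth cDC1 thus had the highest mean G2/M level of the dendritic classes in both libraries. Thinned cells with any S phase UMI were 35.1% and 33.8% of cDC1, 20.9% and 25.4% of cDC2, 30.9% and 19.7% of mature dendritic cells, and 38.7% and 35.2% of T cells.

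**Figure D2:**
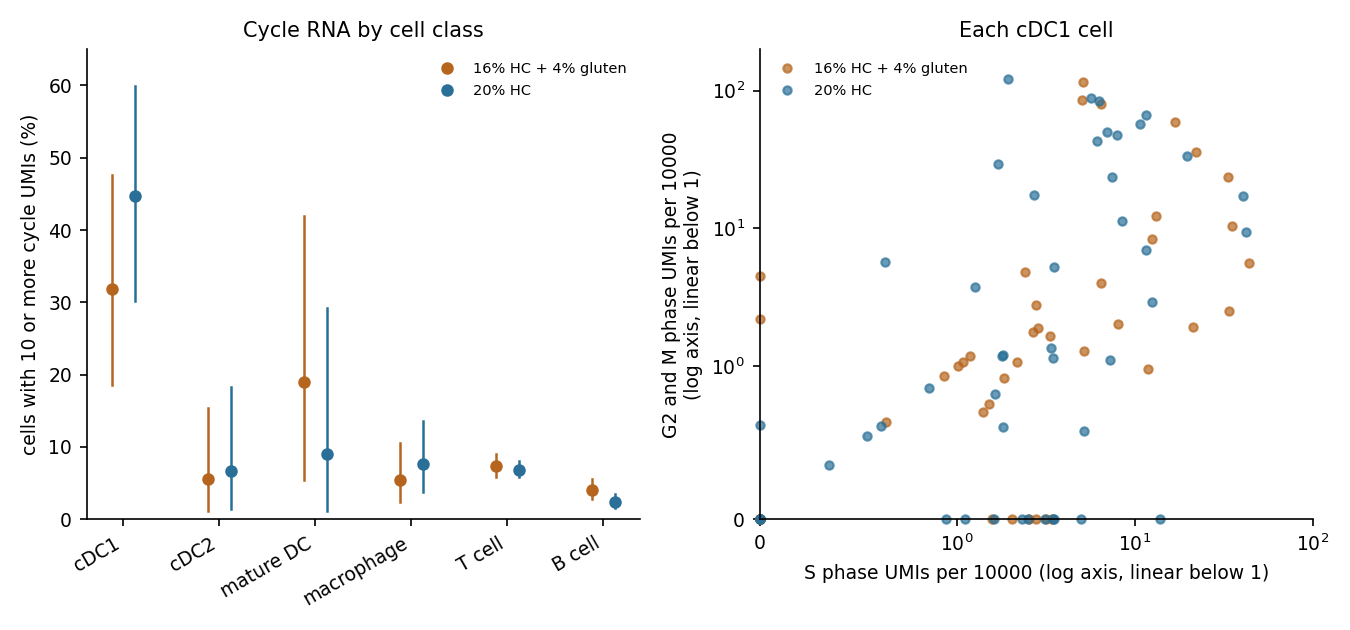
Left, percent of cells with at least 10 cell cycle UMIs in each class and library, with exact binomial 95% intervals. Right, S phase against G2/M UMIs per 10000 UMIs in each cDC1 (symmetric log axes, linear below 1). cDC1 reach 31.8% and 44.7%, against 5.56% and 6.7% in cDC2, and the cells with many G2/M UMIs come from both libraries.

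Cycling and other cDC1 differed in chemokines and in part of the lineage genes. The split at 10 cycle UMIs was set on these cells and is a description, and the cycling cells were deeper (medians of 14061 and 17379 UMIs against 9263.5 and 11849). Irf8 was at 1352 CPM in cycling and 1210.2 in the other cDC1 with gluten, and at 1626 and 1467 with HC alone. Xcr1 was at 320.2 and 359 CPM, and at 536 and 579. The intervals of these ratios span 0. Naaa was higher in cycling cells of both libraries (log2 0.38, 0.04 to 0.71, and 0.30, 0.06 to 0.54). The list of other cDC1 genes, which includes Cxcl9, had log2 ratios of 0.04 (-0.08 to 0.16) and -0.40 (-0.49 to -0.31). Cxcl9, a chemokine that draws CXCR3-bearing T cells, was lower in cycling cells, at 808 against 1897 CPM with gluten (log2 -1.23, -1.50 to -0.97) and 539 against 1823 with HC alone (log2 -1.76, -2.01 to -1.51). The same direction was seen in both libraries for Gbp2, an interferon-induced GTPase (log2 -1.04 and -1.75), for the costimulatory receptor Cd40 (-1.28 and -1.13), for the nuclease Dnase1l3 (-0.85 and -1.09) and for Lyz2, lysozyme (-2.12 and -1.18). The whole cDC2 list was lower too (-0.97 and -1.07), as was the macrophage list (-1.36 and -1.07). The sides of the split thus also differed in RNA of other lineages, held in part by cells with little Irf8. The part of such cells in the other differences was not tested. Txn1 was higher in cycling cells (0.74 and 0.34), as was Psmb8 (0.33 and 0.42).

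Cxcl9 was uneven among cDC1 of both libraries. It ranged from 0 to 161 UMIs per cell with gluten and from 0 to 118 with HC alone, each with a median of 5. At least 10 UMIs were found in 18 and 14 cells. These cells also carried more Cd40, at 229 against 20.8 CPM with gluten and 159 against 44.6 with HC alone. Gbp2 was higher in them by log2 1.83 and 1.51, Cxcl16, a chemokine that also anchors T cells, by 1.04 and 1.45, and Dnase1l3 by 0.59 and 1.16. Il1b, the cytokine interleukin 1 beta, was lower in them (-1.11 and -1.46). Genes of other lineages differed with this split too: the cDC2 list was at -0.53 and -2.32, and the macrophage list at 0.40 with gluten and -4.01 with HC alone. Mki67 was at 0.03 (-0.82 to 0.87) and -4.31 (-6.61 to -2.72). The part of these in the split was not tested.

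Cells with Cd207 carried less RNA of the cDC2 and macrophage lists. In the 14 and 16 cells with a Cd207 UMI, Lyz2 was at 122 and 164 CPM, against 922 and 1784 in the cells without. Tmem176a was at 25.6 and 11.2 against 251 and 359, and Il1b at 89.7 and 22.3 against 757 and 188. Itgae was 135 against 52.9 CPM with gluten (interval 0.34 to 2.38 of log2), while with HC alone the interval spanned 0. The cells without Cd207 thus held most of the cDC2-type RNA in the gate. They included members with little Irf8, such as a gluten cell with 0 Irf8 and 131 cDC2-list UMIs and an HC cell with 5 and 369. The part of such members in these contrasts was not tested. Any of Cd209a, Clec10a or Mgl2, lectins of cDC2, was found in 9 and 7 cDC1.

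Most genes differed little between the diets. Of 1637 genes with at least 50 UMIs in cDC1 of the library where the level was higher, gluten stood 2-fold or more above HC alone for 61 (3.73%) and 2-fold or more below for 25 (1.53%). Over the 7183 genes with 10 UMIs or more over both libraries, the median log2 ratio of gluten over HC alone was -0.07, 6.13% were 2-fold higher and 9.37% 2-fold lower, and the exact interval lay above 0 for 6.21% and below 0 for 6.01%. These shares are the background for the lists that follow. When CPM were averaged over cells rather than taken from summed counts, 58 were higher and 51 lower (53.2% of calls higher against 70.9%). With 2 or more UMIs of Xcr1 and Clec9a required, 45 were higher, 37 of them among the 61, and 24 lower, 12 of them among the 25. The share of calls that were higher was 54.0% for cells with both Xcr1 and Clec9a, 60.7% without cells carrying cDC2 lectins, 41.0% at a minimum of 20 UMIs and 84.2% at 100.

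Inflammatory chemokines and cytokines were among the genes furthest above with gluten. Cxcl2, which draws neutrophils (chr5:90903871-90905938), had 157 UMIs with gluten (342 CPM) and 4 with HC alone (6.28 CPM), a log2 ratio of 5.77 (4.38 to 7.66). It was found in 18 of 44 cells (40.9%, 26.3 to 56.8) and 2 of 47 (4.26%, 0.520 to 14.5), and after thinning in 18.9% and 0.590%. T cells, which should lack it, held it in 3.09% and 0.489% (1.24% and 0.179% thinned). Per cell it ran from 0 to 30 UMIs with gluten and from 0 to 3 with HC alone, so the groups overlap at the low end. Gluten cells with 30, 23, 18 and 9 Cxcl2 UMIs held 1, 1, 0 and 0 of Irf8. Their cDC2-list UMIs were 246, 79, 126 and 92. Other gluten cells with 20, 16, 15 and 9 held 21, 41, 24 and 19 of Irf8. Their cDC2-list UMIs were 14, 28, 19 and 111. A large part of the Cxcl2 thus lay in members with little Irf8. Before thinning, the interval of the HC share starts next to the T-cell share of its library, while that of the gluten share lies well above. T cells were shallower than cDC1, so only the thinned shares compare the classes at equal depth. Under every other setting run, the log2 ratio of Cxcl2 lay between 3.90 and 5.93.

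Cxcl10, which like Cxcl9 draws CXCR3-bearing T cells (chr5:92346638-92348889), was at 458 CPM with gluten and 45.6 with HC alone (log2 3.33, 2.76 to 3.94). It was found in 23 and 7 cells (52.3% and 14.9%, thinned 22.7% and 4.48%), with 19.8% and 7.97% in T cells (10.2% and 3.22% thinned). The T-cell shares differed between the libraries in the same direction. A single cell with gluten, of 3604 UMIs, held 57 of the 210 Cxcl10 UMIs. Cxcl9 (chr5:92321347-92328079) differed less, at 1430.2 and 1134 CPM (log2 0.33, 0.18 to 0.49), and in cDC2 it was the other way round (log2 -0.35, -0.51 to -0.18). Cells with both Cxcl9 and Cxcl10 numbered 20 with gluten and 6 with HC alone.

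Il1b (chr2:129364570-129371139) was at 529.8 CPM with gluten and 118 with HC alone (log2 2.17, 1.79 to 2.56), found in 22 and 13 cells (thinned 20.4% and 11.9%, T cells 2.54% and 1.27%). One gluten cell held 113 of the 243 UMIs, had no Xcr1 or Naaa UMI and 1 each of Clec9a and Irf8, and held 246 UMIs of the cDC2 list. The log2 ratio was 0.50 without the cells carrying cycle UMIs, of which it is one, and 1.21 by the mean CPM per cell. Other gluten cells with 13, 12 and 7 Il1b UMIs held 1, 0 and 0 of Irf8, while those with 28 and 18 held 19 and 41. With HC alone, cells with 21, 14 and 11 Il1b UMIs held 1, 0 and 3 of Irf8, and 1 with 6 held 24. Much of the Il1b thus lay in members with little Irf8 in both libraries. Nfil3, a transcription factor required for cDC1 development (chr13:52967209-52981073), was at 124 and 11.0 CPM (log2 3.50, 2.36 to 4.88) and in 29 and 7 cells (65.9% and 14.9%, T cells 27.5% and 9.64%). Thinned, the shares were 11.0% and 2.05% in cDC1 and 12% and 2.78% in T cells, so at equal depth Nfil3 was no more often found in cDC1. No cell held more than 4 Nfil3 UMIs. In thinned cells its ratio was 0.10, from few UMIs.

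The list of cytokines and chemokines as a whole leaned the same way. Of 15 with 10 UMIs or more, 9 were 2-fold higher with gluten and 1 lower, and the interval lay above 0 for 9 and below for none, with a median log2 ratio of 1.47. Ccl4, a chemokine, was at 150.4 and 56.6 CPM (1.41, 0.81 to 2.03). Tnf was at 48.0 and 17.3 CPM (1.47, 0.37 to 2.66). Il12b, the interleukin 12 subunit by which cDC1 drive type 1 T-cell responses, had 16 UMIs in 5 cells with gluten and 1 in 1 cell with HC alone. The list median was 0.67 when Xcr1 and Clec9a had to sum to 2 or more UMIs and 0.59 without cells carrying cDC2 lectins. Lists of other myeloid cells leaned the same way within cDC1: of 10 macrophage and monocyte genes, 5 were 2-fold higher with gluten and none lower (median 0.68), and of 24 cDC2 genes, 5 were higher and 3 lower, with the interval above 0 for 8 and below for 4 (median 0.20). Their part in the cytokine values was not tested beyond leaving out cells with cDC2 lectins. Cxcl16 (432 and 401 CPM) and Tgfb1 (150.4 and 185 CPM) differed by less than 2-fold.

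**Figure D3:**
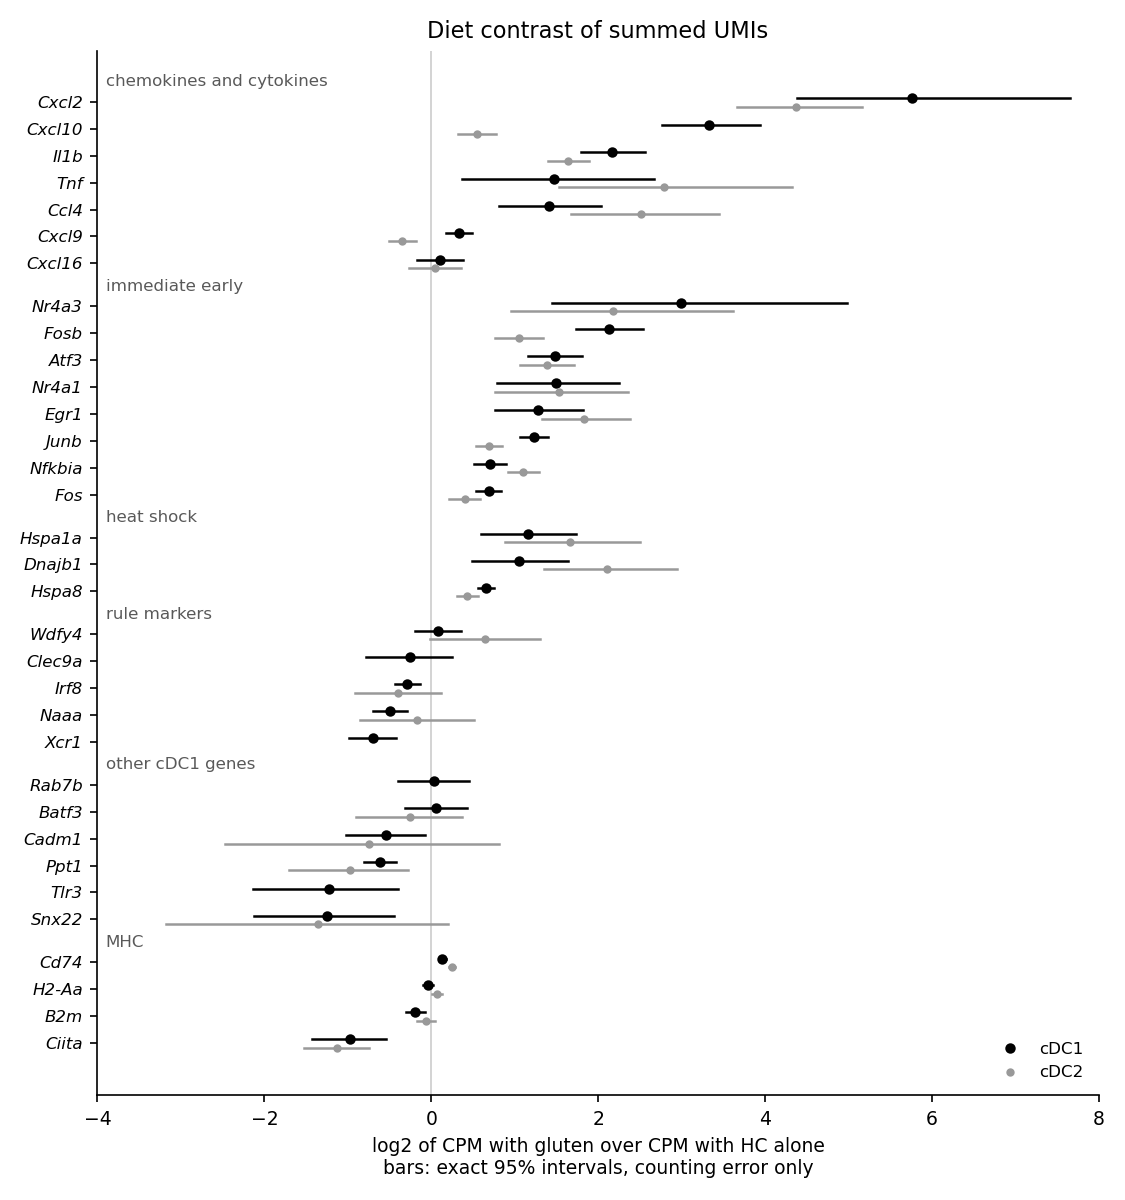
Log2 ratio of gluten over HC alone with exact 95% intervals for genes of 6 groups, in cDC1 (black) and cDC2 (grey, left out under 10 UMIs). In cDC1, Cxcl2 at 5.77, Cxcl10 at 3.33 and Nr4a3 at 3.00 lie furthest right, and the lineage genes lie near or left of 0.

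Immediate early and heat shock genes, which are quickly induced by stimulation and stress, were higher with gluten. The interval lay above 0 for 20 of 24 immediate early genes and below for none, 12 were 2-fold higher and 1 lower, and the median was 0.94. Fosb, a subunit of AP-1, was at 482 and 110.0 CPM (2.13, 1.74 to 2.54) and Junb at 1698 and 726 (1.23). Atf3, induced by stress, was at 517 and 185 CPM (1.48), and Nr4a2, an orphan nuclear receptor, at 246 and 86.4 (1.51). Of 12 heat shock chaperones the interval lay above 0 for 11, with a median of 0.66, and Hspa8 was at 3743 and 2375 CPM (0.66). The direction was not particular to cDC1. Immediate early genes summed to 10711 and 6212 CPM in cDC1, 12895 and 8280.3 in cDC2, 13578 and 6798 in macrophages and 12119 and 7803 in T cells. The diet and the preparation of each library cannot be told apart here.

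The inflammatory genes were likewise higher with gluten in neighbouring myeloid cells. In cDC2 the log2 ratio was 4.37 (3.67 to 5.16) for Cxcl2, 0.55 (0.32 to 0.78) for Cxcl10, 2.02 (1.15 to 2.99) for Nfil3 and 1.64 (1.39 to 1.89) for Il1b. In macrophages the ratios were 3.18, 1.28, 1.81 and 0.72. These genes were chosen for their values in cDC1, so their sizes are not compared between classes. The classes came from the same 2 libraries.

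Lineage genes stood lower with gluten more often than higher. Among 28 measured cDC1 genes outside the rule, 22 were lower and 6 higher in sign, 6 were 2-fold lower and none higher, and the interval lay below 0 for 11 and above for 2, with a median of -0.49. Tlr3, the sensor of double-stranded RNA (chr8:45395665-45411080), was at 34.9 CPM with gluten and 81.7 with HC alone (-1.23, -2.14 to -0.40), and was found in 10 and 26 cells (thinned 3.72% and 9.68%, T cells 0.454% and 0.440%). Snx22, a sorting nexin, was at 37.1 and 88.0 CPM (-1.25, -2.12 to -0.44). Zbtb46, the factor common to conventional dendritic cells, was at 15.3 and 39.3 CPM (-1.36). Id2, which represses the plasmacytoid fate, was at 833 and 1199 CPM (-0.53). Ppt1, Cadm1 and Btla had ratios of -0.61, -0.54 and -0.54, while Batf3 (0.06), Flt3 (-0.07), Rab7b (0.03) and Cd36 (-0.06) lay near 0. Of the markers that the gate did not use, Naaa had -0.49 (-0.69 to -0.29), Irf8 -0.29 (-0.44 to -0.14) and Wdfy4 0.09 (-0.19 to 0.36).

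With gluten 12 of 44 members held a single UMI of Xcr1 and Clec9a, against 7 of 47, and their lower Irf8 is given above. Without those cells the list median was -0.46, beside -0.49 with them, and Irf8 was at 1480 and 1691 CPM. That setting still kept members with little Irf8, such as a gluten cell with 4 Clec9a, 0 Irf8 and 55 cDC2-list UMIs. The part of such members was not tested. In cells thinned to 1000 UMIs, where fewer genes reach 10 UMIs, the median was 0.08. Itgae went the other way, at 80.7 and 47.1 CPM (0.78, 0.04 to 1.52). In cDC2 the same list had a median of -0.75 over 19 genes, and in macrophages -0.06 over 15.

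The 12 genes furthest below with gluten included a cytokine receptor chain and an inhibitor of apoptosis. Ifngr2, a chain of the interferon gamma receptor, was at 76.3 and 187 CPM (-1.29, -1.88 to -0.74). Its partner Ifngr1, outside the 12, was at 153 and 245 CPM (-0.68, -1.11 to -0.27). Birc3, an inhibitor of apoptosis in the NF-kB pathway, was at 30.5 and 83.3 CPM (-1.45, -2.41 to -0.58), with a ratio of 1.10 in thinned cells, from few UMIs. Ifnar1, a chain of the type I interferon receptor and also outside the 12, had 7 and 33 UMIs (-1.76, -3.19 to -0.56). Cbfa2t3, a transcriptional corepressor, was at 144 and 342 CPM (-1.25, -1.67 to -0.85), and Rsrp1, an arginine- and serine-rich protein, at 87.2 and 261 (-1.58, -2.12 to -1.07). Rsrp1 was found in 20 and 43 cDC1 (thinned 7.06% and 24.2%) and in 47.1% and 67.6% of T cells (thinned 21.5% and 31.6%), the same order of libraries. The other 8 (Ap2b1, BC035044, Elf1, Isoc1, Ppfia4, Pura, Rasgrp3 and Serpinb6b) had ratios from -1.38 to -1.08. Of these, Ap2b1, Isoc1 and Pura had positive ratios in thinned cells, from few UMIs. Of the 18 cytokine receptors measured, 2 were 2-fold higher and 3 lower, with a median of -0.21.

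The presentation machinery was close between diets. The class II list summed to 52351 CPM with gluten and 51090.3 with HC alone, none of 13 genes was 2-fold different, and the median was -0.04. Ciita, the regulator of class II transcription, was at 131 and 258 CPM (-0.98, -1.43 to -0.54). Of 26 class I genes, none was 2-fold higher and 1 was lower (median -0.13). Costimulation did not shift as a list (15 genes, 1 higher and 1 lower, median -0.11). Cd86 was at 296 and 300.1 CPM, and Cd83, of activated dendritic cells, at 201 and 110.0 (0.87, 0.40 to 1.34). The interferon response list had a median of 0.14 over 23 genes, with 2 genes 2-fold higher and none lower. Its median was -0.48 in cells with both Xcr1 and Clec9a and -0.41 without cells carrying cDC2 lectins. Gbp2 was at 211 and 129 CPM, and Iigp1, an interferon-induced GTPase, at 43.6 and 75.4.

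Maturation genes gave no single direction (19 genes, 4 at 2-fold higher and 3 lower, median -0.10), nor did transcription factors of dendritic lineages (21 genes, 1 and 2, median -0.22). Among the factors, Bcl11a, of the plasmacytoid lineage, was at 13.1 and 44.0 CPM (-1.75, -3.31 to -0.45), and Klf4, of the cDC2 lineage, at 150.4 and 84.8 (0.83, 0.29 to 1.37). Of 11 innate sensors, 1 was 2-fold higher and 4 lower (median -0.26).

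Cell cycle and metabolic lists did not separate the diets by 2-fold. G2/M genes summed to 1567 and 1796 CPM (20 genes, none 2-fold higher and 1 lower, median -0.33), and S phase genes to 881 and 694 CPM (20 genes, 2 higher and 1 lower, median 0.27). Mki67 was at 113 and 167 CPM (-0.55, -1.06 to -0.06). Genes of oxidative phosphorylation summed to 8829 and 8715 CPM, and none of 20 had an interval off 0. Odc1, the first enzyme of polyamine synthesis, stood apart from these at 338 and 94.3 CPM (1.84, 1.40 to 2.30).

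Several of the genes furthest above with gluten rest on 1 or a few cells. Dcn, a proteoglycan of mesenchymal cells, had 105 UMIs with gluten, 103 of them in 1 cell, and none with HC alone. Against a floor of 3 counts in that library it was at least 48.6-fold higher. Igfbp6 had 52 and 0 UMIs, 50 in that same cell, and was at least 24.1-fold higher. Apoe, a lipid carrier of macrophages, had 115 and 8 UMIs, 108 in 1 cell. In all, 6 of the 61 genes had at least 50% of their gluten UMIs in 1 cell: Apoe, Chga, Dcn, H2-M2, Igfbp6 and Resp18. The glucagon gene Gcg had 2839 and 256 UMIs, with 1366 and 1200 in 2 cells, and was found in 44 and 46 cDC1 (thinned 52.1% and 37.4%) and in 96.2% and 91.8% of T cells (thinned 72.4% and 56.8%). Without cells at 2% or more hormone UMIs its log2 ratio was 0.66 in place of 3.94, and the hormone list had a median of 0.42 in place of 1.82. Pcsk1n, Resp18, Scg5 and Chga, of the secretory granules of endocrine cells, complete the 12. With cells rich in RNA of other types and the doublet candidates left out together, 38 of the 61 higher and 20 of the 25 lower genes were kept.

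**Figure D4:**
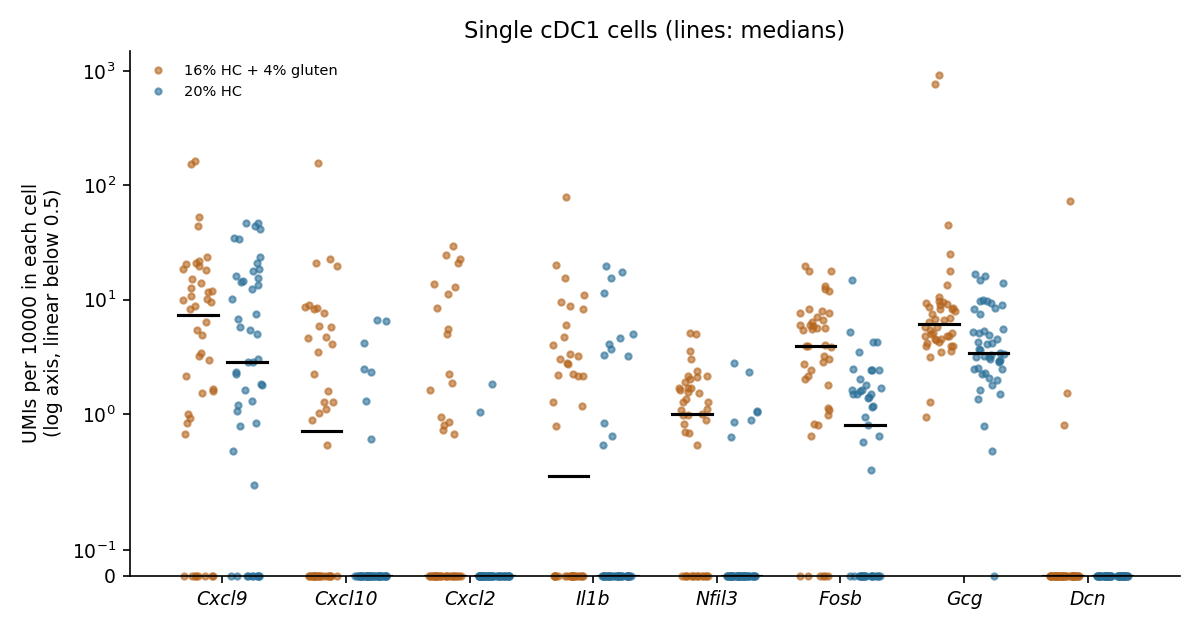
UMIs per 10000 UMIs in each cDC1 of both libraries for 8 genes (symmetric log axis, linear below 0.5), with lines at the medians. Cxcl10, Nfil3 and Fosb are spread over many gluten cells, while nearly all Dcn is in 1 cell and the highest Gcg values on 2.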

How the data were processed

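Islet cells of 2 groups of NOD/ShiLtJ mice were run on the 10x Genomics single cell 3′ v3 assay, 1 library of 3 pooled mice per diet, so no paired or replicate number exists. The authors deposited raw UMI counts per gene and barcode, not normalized. Cell Ranger 4.0.0 and mm10 stand in the submitters' processing notes. How cells were called is not given in the sources used here, nor is the annotation. Of 31053 rows, 30934 were matched by identifier to GENCODE vM21 symbols. Barcodes with under 1000 UMIs, under 200 genes or over 20% mitochondrial UMIs were dropped, leaving 7213 and 7347, and the gates for cDC1 and other cells were then applied. The members and gene lists were chosen with earlier results of these data known.

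Counts were summed per class and library and scaled to CPM. Shares carry Clopper-Pearson intervals, their differences Newcombe intervals, CPM exact Poisson intervals, and log2 ratios of CPM exact conditional binomial intervals, all at 95%. No p-value was computed, since each diet has 1 library. These steps were tested on simulated Poisson and binomial counts, the model that the intervals assume. That test leaves out the uneven spread of UMIs between cells. UMIs mark molecules, so the intervals cover counting error of molecules. Named genes had at least 50 UMIs in a compared group: the 12 furthest higher and 12 lower with gluten by the interval bound nearest 0, and the 15 higher and 10 lower furthest from cDC2 in both libraries. Single genes of fixed lists were named as examples after their values were seen, as were the splits of cDC1 by cycle, Cxcl9 and Cd207 UMIs. List counts need 10 UMIs.

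Doublets were scored with Scrublet (scanpy 1.11.5). Its own threshold marked 11 (0.145%) and 256 (3.38%) barcodes and no cDC1. The first share is too low to be a working call, so no barcode was removed in the main values. The highest 6% of scores, which hold 1 and 2 cDC1, were left out as an alternative. Other alternatives changed the gate, the UMI and mitochondrial limits, the scaling (edgeR 4.0.16 for TMM factors only), the thinning and the minimum count. Python 3.11.15, numpy 2.4.6, scipy 1.17.1 and matplotlib 3.10.9 were used.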

Additional observations from a re-analysis of the deposited data

How the results depend on the processing

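Each diet has 1 library, so no replicate could be left out and no test could be run. No paired analysis was possible because each diet has 1 library and no replicate number. The share was computed under 15 other settings, the 4 counts of genes under 21, single genes under up to 17 and list medians under 10 to 17. Of all settings, 5 were added after seeing the data: without cells rich in endothelial and mesenchymal RNA, in cycle RNA or in cDC2 lectins, without RNA of other cells and doublets together, and without genes held by 1 cell. The share difference was -4.25 points among the 3 dendritic gates. The 61 genes higher with gluten became 144, 32 and 440 at minimums of 20, 100 and 10 UMIs, 27 for cells with both Xcr1 and Clec9a, 36 without cycling cells and 37 without cells carrying cDC2 lectins. The 25 lower became 207, 6 and 673 at the same minimums, 51 by mean CPM per cell and 10 without cycling cells. The 61 over cDC2 became 124, 30 and 236, and 19 without cycling cells, and the 80 under cDC2 became 189, 42 and 380. The cDC1 left were 23 and 31 with both receptors, 30 and 26 without cycling cells, and 35 and 40 without cDC2 lectins. With fewer cells fewer genes can reach 50 UMIs, and shares of measured genes are not given for these settings. The cycling setting took cells from cDC1 only, as cDC2 stayed at 54 and 45. Thinned to 1000 UMIs, where few genes reach 50 UMIs, the 4 counts were 3, 0, 2 and 10. TMM scaling gave 66 and 19 genes higher and lower.

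Single genes turned as follows. Dcn and Igfbp6 went to -0.10 without the highest 6% of Scrublet scores, and also without cells rich in endothelial and mesenchymal RNA. In the main values 1 cell held nearly all their UMIs. Neither gene had a UMI with HC alone, where the ratio uses the floor of counts given above. The negative sign therefore comes from that floor and does not show a lower level with gluten. Without cells at 2% or more hormone UMIs, Pcsk1n and Resp18 went to -0.0058, and Pyy, under cDC2, to 0.34. Thinned, Birc3 went to 1.10, Pura to 0.10, Ap2b1 to 1.68 and Isoc1 to 1.10, and the cause was not tested. Without cycling cells, Birc5 went to -1.04 and Mki67 to -1.68 over cDC2, by construction. Cxcl2 stayed between 3.90 and 5.93 and Cxcl10 between 2.12 and 3.76 in every alternative, and the medians of immediate early genes between 0.63 and 1.00 and of heat shock genes between 0.59 and 1.01. At 44 and 47 cells, depth limits genes under about 50 UMIs most.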

Other observations

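Dead cell uptake genes of cDC1 had no single direction, and tolerance genes stood mostly higher with gluten. Dnase1l3, a nuclease that degrades DNA of dying cells, was at 238 CPM with gluten and 371 with HC alone (log2 -0.64, -0.98 to -0.31). Of 12 uptake genes, 1 was 2-fold higher and none lower (median -0.16). Among tolerance genes, no UMI of Ido1, Aldh1a1 or Aldh1a2 was found in cDC1 of either library, where 3 counts allow up to 6.54 and 4.71 CPM. Of the 6 measured, 5 were higher with gluten in sign, 1 of them 2-fold, and the interval lay above 0 for 2 (median 0.41). This direction was not particular to cDC1. In cDC2, 9 of 9 measured were higher in sign (median 0.42), and in macrophages 8 of 11 (median 0.30). Socs3, a brake on cytokine signalling, was at 133 and 59.7 CPM (1.16, 0.55 to 1.78), and Ahr, the aryl hydrocarbon receptor, at 209 and 138 (0.60, 0.17 to 1.03).

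Homing genes lay in both directions. Ccr2, which follows Ccl2, was at 181 and 286 CPM (-0.66, -1.05 to -0.28), and Itgb2, the common chain of leukocyte integrins, at 118 and 190.1 (-0.69, -1.18 to -0.22). Ccr7, which leads dendritic cells to lymph nodes, was at 41.4 and 15.7 CPM (1.40, 0.22 to 2.67), in 7 and 4 cells (thinned 3.41% and 2.35%, T cells 14.6% and 10.5%). A single gluten cell held 10 of the 19 UMIs, against 10 in all HC cells. It had no Xcr1 or Irf8 UMI, 1 of Clec9a and 23 of Cd209a, so it lay at the edge of the gate. Cxcr3, the receptor of Cxcl9 and Cxcl10, was found in 13 and 10 cDC1 (45.8 and 20.4 CPM), thinned 3.46% and 2.10% of cells, with no UMI in cDC2, and in 28.8% and 31.7% of T cells (thinned 12.9% and 13.0%). Of the 22 genes of this list, 3 were 2-fold higher with gluten and 2 lower (median -0.23). In the lysosome list of 20 genes none was 2-fold different (median 0.04), and Cst3, an inhibitor of cysteine proteases, was higher in cDC1 than in cDC2 by log2 1.31 and 1.58.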
